A study of Mus musculus with 15 samples.

Results

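The star strands on the array, the miRNAs whose names end in an asterisk, were examined in mouse liver grafts. Every mouse miRNA on the array with such a name was taken, which gave 114 of 567 mouse miRNAs. Each was measured by 2 to 4 probes. A main strand, the same name without the asterisk, was on the array for 103 of them. For 10 more the main strand was taken as the name without the hairpin number (let-7c for let-7c-1*, for example), and miR-125b* had none.

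A miRNA gene is transcribed as a hairpin, which is cut into a short duplex of its 5′ and 3′ arms. One arm is usually loaded into an Argonaute protein and guides it to target mRNAs, and the other, the passenger strand, is usually degraded. Older nomenclature marked the scarcer arm with an asterisk, while newer names give the arm (-5p or -3p). An asterisk is therefore a name given from earlier sequencing, and both arms of some hairpins are abundant in some tissues.

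The arrays were in 1 color, with 1 graft per array and 3 arrays in each of 5 groups. Allografts of male mice, from B10.BR (H2-Kk) donors into B10.D2 (H2-Kd) recipients, were taken on days 5, 8, 14 and 100, and syngeneic grafts on day 5. The study used these grafts, which are accepted without immunosuppressive drugs, to follow miRNAs through rejection and tolerance. The labels name the allogeneic strain pair for the syngeneic arrays too, so this group rests on their titles, and which strain the syngeneic mice were is not given. Syngeneic grafts were taken on day 5 only, so for the later days time after surgery and allogeneic grafting cannot be told apart.

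The liver marker miR-122 was bright on every array, at 9002 to 20664 signal units. The 75th percentile of signal, to which each array was scaled, ran from 395 to 1018 units. The additive background error of the scanner software was 13.1 units on the array of replicate 1 of day 100 and 2.67 to 3.66 units on the other 14, and results that rest on that array are also given without it. The arrays lay on 2 slides: days 8 and 14 with syngeneic replicates 1 and 2 on slide 1, and days 5 and 100 with syngeneic replicate 3 on slide 2. The number of arrays limits the precision of all values.

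The sequences below are the star arms that were detected and could be matched, because it is on these letters that the star and main strands of a hairpin differ. They are from RefSeq (GRCm38.p6), assigned through the later arm names since the array files hold no probe sequence. Capitals mark the seed, bases 2 to 8, with which a miRNA pairs to its targets.
miR-140*: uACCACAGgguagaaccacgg
miR-30a*: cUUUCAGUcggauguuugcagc
miR-30e*: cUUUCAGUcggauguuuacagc
miR-135a*: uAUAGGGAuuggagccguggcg
miR-17*: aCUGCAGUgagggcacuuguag
miR-22*: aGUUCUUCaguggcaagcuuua
let-7d*: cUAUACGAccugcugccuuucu

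The main strands of 6 of these hairpins were in the same table, and none shared the seed of its star.
miR-30a: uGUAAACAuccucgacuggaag
miR-30e: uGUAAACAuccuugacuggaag
miR-135a: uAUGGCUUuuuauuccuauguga
miR-17: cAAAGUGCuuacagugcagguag
miR-22: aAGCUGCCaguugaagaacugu
let-7d: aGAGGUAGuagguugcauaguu

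Among the stars printed, miR-30a* and miR-30e* were the only pair with a common seed. They differ by 1 base (G18A, counted from the 5′ end, miR-30a* first), and their main strands also differ by 1 base (C13U). A probe of so short a target may not separate such neighbors, so the values of the 2 hairpins are not independent evidence. GC content was 40.9 to 59.1% in the 7 star arms and 30.4 to 47.8% in the 6 main arms.

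The hairpins of miR-140, miR-30e, miR-135a-1 and miR-17 are shown to place the arms, which are in capitals; for miR-140 the star arm alone is marked.
Mir140: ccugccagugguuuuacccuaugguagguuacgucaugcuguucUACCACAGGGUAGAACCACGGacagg
Mir30e: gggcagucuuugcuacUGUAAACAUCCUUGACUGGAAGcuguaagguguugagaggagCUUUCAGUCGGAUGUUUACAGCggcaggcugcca
Mir135a-1: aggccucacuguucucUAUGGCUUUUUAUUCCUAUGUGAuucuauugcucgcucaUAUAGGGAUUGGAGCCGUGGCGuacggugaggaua
Mir17: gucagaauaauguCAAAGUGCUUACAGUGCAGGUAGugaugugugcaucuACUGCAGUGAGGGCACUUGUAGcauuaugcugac

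In GRCm38.p6, Mir140 lies at chr8:107551244-107551313 on the plus strand, within the span of the protein-coding gene Wwp2. Mir30e lies at chr4:120772606-120772697 on the minus strand, within the span of Nfyc, which encodes a subunit of the transcription factor NF-Y. Mir135a-1 lies at chr9:106154124-106154213 on the plus strand, within the spans of Glyctk and the noncoding D030055H07Rik. Mir17 lies at chr14:115043671-115043754 on the plus strand, where no other gene of the table spans it, as was also so for Mir30a at chr1:23272269-23272339. Exons and introns were not in the table used here.

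Few star strands were detected. For detection, a share of 0.5 or more of a probe's spots had to be well above background on an array, and 1 such probe was enough for its miRNA. By this rule 8 of 114 star strands (7.02%) were detected on at least 1 array, against 130 of the 453 other mouse miRNAs (28.7%). No star strand was detected on all 15 arrays, whereas 52 of the other miRNAs were. This rests on replicate 1 of day 100, the noisy array, the only one where miR-30a* and miR-30e* were not detected. The lowest signal detected there was 71.0 units, and miR-30a* read 47.7 units. The 8 were miR-30a* and miR-30e* (14 arrays each), miR-140* (13), miR-135a* (7), miR-17* (5), miR-22* and miR-199b* (4 each) and let-7d* (1). Only the noisy array brings let-7d* into this count.

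Detection varied between groups for star strands and the other miRNAs alike. In the syngeneic grafts the 3 arrays had 3, 2 and 5 star strands. The allografts of day 5 had 6, 6 and 3, those of day 8 had 4 each, those of day 14 had 6, 5 and 6, and those of day 100 had 1, 3 and 4. The number of star strands shared by all 3 arrays of a group was 2 in the syngeneic grafts, and 3, 4, 5 and 0 in the allografts of days 5, 8, 14 and 100. For the other miRNAs these numbers were 63, 80, 93, 92 and 54. Without replicate 1 of day 100, the noisy array, both remaining arrays of that day shared 3 star strands.

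**Figure D1:**
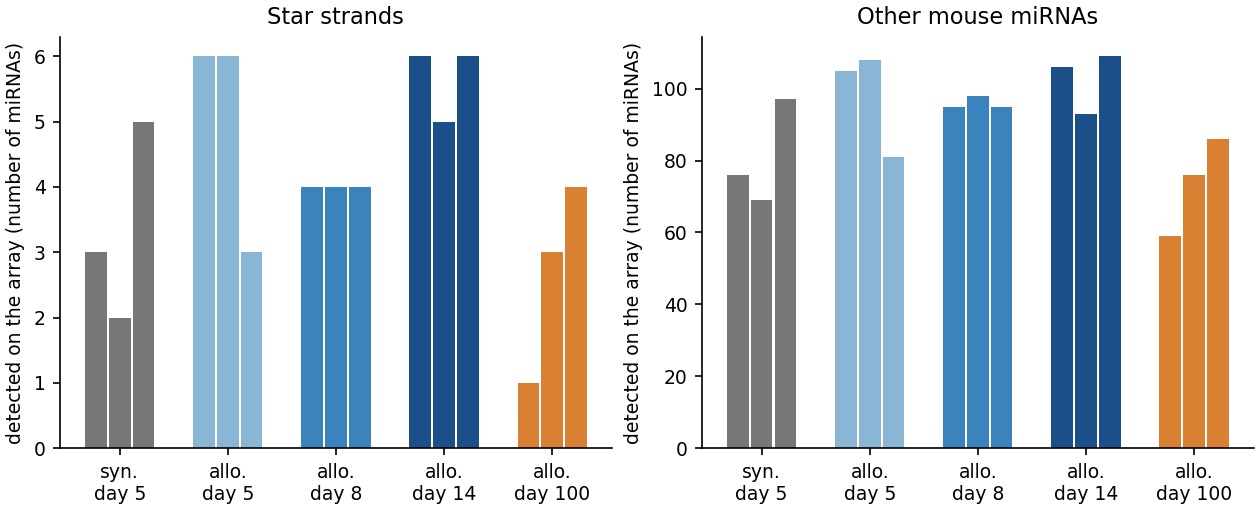
Number of star strands (left) and of other mouse miRNAs (right) detected on each array, with 1 bar per array in replicate order and 1 color per group. The arrays of day 14 had 5 or 6 star strands each, and replicate 1 of day 100 had 1.

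The other star strands were not detected on any array. Their median signal over the arrays lay between -17.0 and 17.2 units after background subtraction, and was below 0 for 75 of them. The highest of these medians was that of miR-483*. These values say that the strands were not well above background, not that they were absent.

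Most star strands were not detected even where the main strand was detected on all 15 arrays. They were detected more often there than in the other pairs, a difference that was not tested. Of 30 pairs whose main strand was detected on all 15 arrays, 5 had a star strand detected on any array. Among 26 pairs with a main strand on 1 to 14 arrays this was 1, miR-140*. Among 57 pairs whose main strand was detected on no array it was 2, miR-135a* and miR-17*. Both strands were detected in 6 of 113 star and main pairs, and in 2 of 61 pairs that the array names as -5p and -3p. let-7d* is among the 5 and the 6 through the noisy array alone.

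miR-21, which is induced in many inflamed tissues, was the brightest main strand, at 8008 to 34740 units. miR-21* was not detected, with signals of -69.7 to 15.7 units. Of the 10 brightest main strands with a star on the array, miR-22 and miR-30a alone had a detected star strand. The stars of let-7f, miR-29a, miR-15a, miR-29b, let-7g, miR-148a and let-7c (let-7c-1* and let-7c-2*) were not detected on any array.

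By lists of hairpins, the star strands of leukocyte and immune response miRNAs were not detected (0 of 6), where 11 of 17 other arms of these hairpins were. Of liver parenchyma hairpins 3 of 14 star strands and 20 of 20 other arms were detected, of miR-17-92 and its paralogs 1 of 8 and 9 of 14, of let-7 1 of 7 and 9 of 9, and of stromal and endothelial hairpins 1 of 11 and 10 of 13. The let-7 star was let-7d*, detected on the noisy array alone. Over all star strands the share was 7.02%, with let-7d* included. No star strand of the erythroid hairpins was on the array.

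Star and main strand were then compared within each array, where the scaling cancels for signals above the floor. A ratio of signals is not a ratio of molecules, since the probes differ. miR-140* gave 23.7 to 84.5% of the signal of miR-140 (median 50.7%, 13 arrays). miR-30e* gave 16.9 to 40.9% of miR-30e (median 29.4%, 14 arrays), and miR-30a* gave 5.20 to 11.9% of miR-30a (median 7.72%, 14 arrays). miR-199b* gave 18.7 to 24.2% of miR-199b on 4 arrays. The 3 strongest stars therefore differed widely in their share, with miR-140* closest to its main strand.

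At the other end, miR-22* gave 0.388 to 0.459% of miR-22, an abundant liver miRNA, on the 4 arrays where it was detected. Its signal there was 22.3 to 28.0 units against 4724 units for the median of miR-22. let-7d* was detected only on the noisy array, at 264 units or 42.6% of let-7d, and had -9.92 to 5.43 units on the other 14 arrays. No statement about let-7d* in the grafts is drawn from 1 such array.

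For miR-135a* and miR-17* the main strand was not well above background on any array. Against the lowest detected signal of the same array, miR-135a* was 1.41 to 2.80 times as bright on its 7 arrays. miR-17* was 1.28 to 1.76 times as bright on its 5. miR-17 is a member of the proliferation-linked miR-17-92 cluster. In both pairs the signal carried by the asterisk name was the larger one here.

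**Figure D2:**
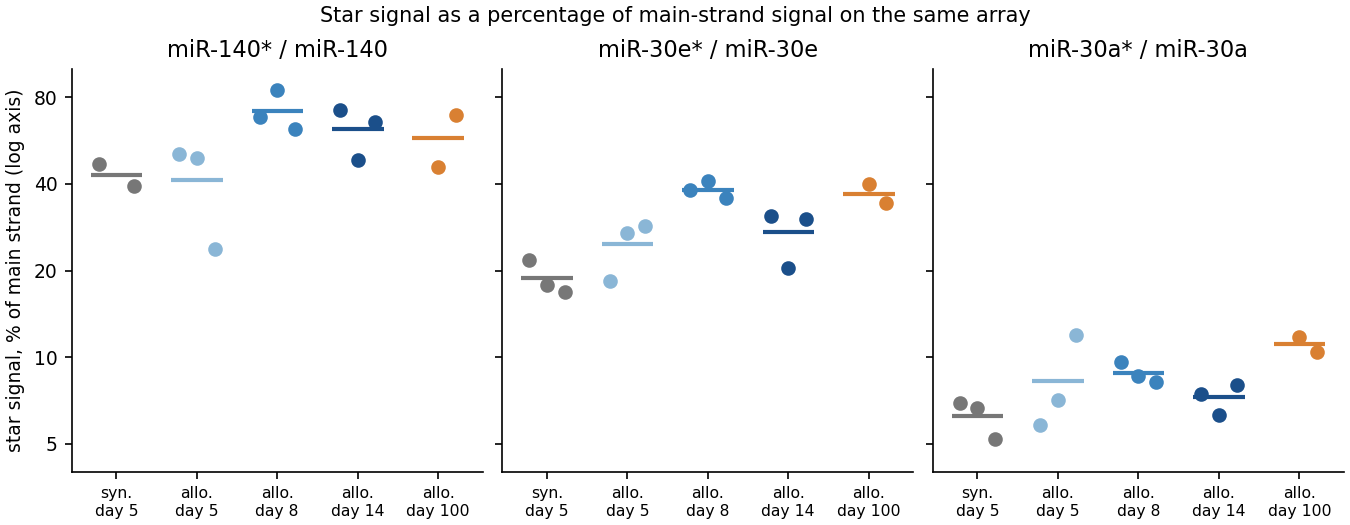
Star signal as a percentage of the main strand's signal on the same array (log axis) for miR-140*, miR-30e* and miR-30a*, with 1 point per array where both strands were detected and lines at the group means. On day 8 miR-140* lay at 61.8 to 84.5% and miR-30e* at 35.7 to 40.9%, above their syngeneic arrays.

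Changes between groups were tested for the 5 star strands that some group showed on each of its 3 arrays, in 1 limma fit with all 103 miRNAs that met this filter. Each signal was scaled to its array's 75th percentile, converted to log2 and set to -5.21, the floor, where they were lower. All levels and log2 fold changes below are on this scale, and adjusted p-values are Benjamini-Hochberg values over the 103 miRNAs. A star strand could enter through the group where it was high, so the counts of calls are given beside those of all miRNAs tested. On day 5, 0 of 5 star strands were called against 25.2% of all miRNAs, and 0 of 5 also passed at an unadjusted p under 0.05. On day 8 it was 1 of 5 (miR-140*) against 40.8%, and on day 14 it was 2 (miR-140* and miR-17*) against 45.6%. On day 100 it was 0 against 31.1%, again with 0 at an unadjusted p under 0.05. Between days 14 and 100, 3 of 5 (miR-135a*, miR-140* and miR-17*) were called against 51.5%.

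The calls named here were all of higher levels in the first group of the comparison. miR-17* had passed the filter through day 14 alone and miR-135a* through days 8 and 14 alone, so their directions were largely set by the filter. The direction of miR-140* was not free of the filter either. It passed through days 5, 8 and 14 only, with detection on 2 of 3 syngeneic arrays and 2 of 3 arrays of day 100. Over all 103 miRNAs, 28 were called higher and 19 lower on day 14. Under some alternatives star strands were called lower on that day: miR-30a* with quantile normalization (-1.02, adjusted p = 0.0448) and with only the groups compared (-0.61, adjusted p = 0.0399), and miR-30a* and miR-30e* with normexp (-0.58 and -0.52, adjusted p = 0.0252 and 0.0295).

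The fit placed miR-140* higher in the allografts of days 8 and 14. It had passed the filter through allograft groups only, so its p-values are given as a description. Its host gene Wwp2 and miR-140 itself are best known from cartilage. Levels in the syngeneic grafts were -4.71, -5.21 (at the floor) and -4.38. They were -4.04, -4.16 and -4.22 on day 5. They were -3.71, -3.62 and -3.72 on day 8. On these 2 days all 3 allografts lay above the syngeneic grafts, with little spread among themselves.

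On day 14 miR-140* was at -3.36, -3.81 and -3.61, and on day 100 at -5.21 (at the floor, the noisy array), -4.32 and -3.68. The arrays of day 14 again lay above all syngeneic ones, and those of day 100 overlapped with both. The rise was 1.08 ± 0.31 (log2, SE, n = 3 per group; adjusted p = 0.0143) on day 8 and 1.17 ± 0.31 (adjusted p = 0.00760) on day 14, or 2.12- and 2.25-fold. On day 5 the difference was 0.63 ± 0.31 (adjusted p = 0.172) and on day 100 0.36 ± 0.31 (adjusted p = 0.380). Against day 100, day 14 was higher by 0.81 ± 0.31 (adjusted p = 0.0431), a call that was lost in 11 of 15 fits that each left out 1 array.

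Within slide 1 the rise of miR-140* was 1.28 on day 8 (adjusted p = 0.00184) and 1.37 on day 14 (adjusted p = 0.000980). The syngeneic grafts there were replicates 1 and 2 only, with replicate 2 at the floor. Replicate 3, the highest syngeneic value (-4.38), lay on slide 2, so these rises are not stronger evidence than the main fit. Without syngeneic replicate 2, whose value was at the floor, the rise on day 8 was 0.86 and not called (adjusted p = 0.0655), while that on day 14 was called with each array left out in turn (0.95 to 1.37). With a normexp background correction, which adds an offset of 50 units to each spot where the summed signal of this star had a median of 53.4 units, the differences were -0.14 and -0.16 and were not called. Both calls were also lost with the floor divided by 4 and with no filter on detection. Without replicate 1 of day 100, that day was 0.77 above the syngeneic grafts (adjusted p = 0.0374) and 0.40 below day 14 (adjusted p = 0.192).

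The main strand miR-140 was not called on any day with scaled signals, but without scaling it was higher on days 5 and 14, by 0.98 and 1.11 (adjusted p = 0.0199 and 0.00530). Its levels were -3.62 to -3.02 in the syngeneic grafts and on average -2.89 on day 14. Its differences from day 5 to day 100 were 0.44, 0.034, 0.33 and -0.17, each with an SE of 0.27 (adjusted p = 0.246, 0.959, 0.338 and 0.657). The 95% interval on day 8 was -0.55 to 0.62.

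**Figure D3:**
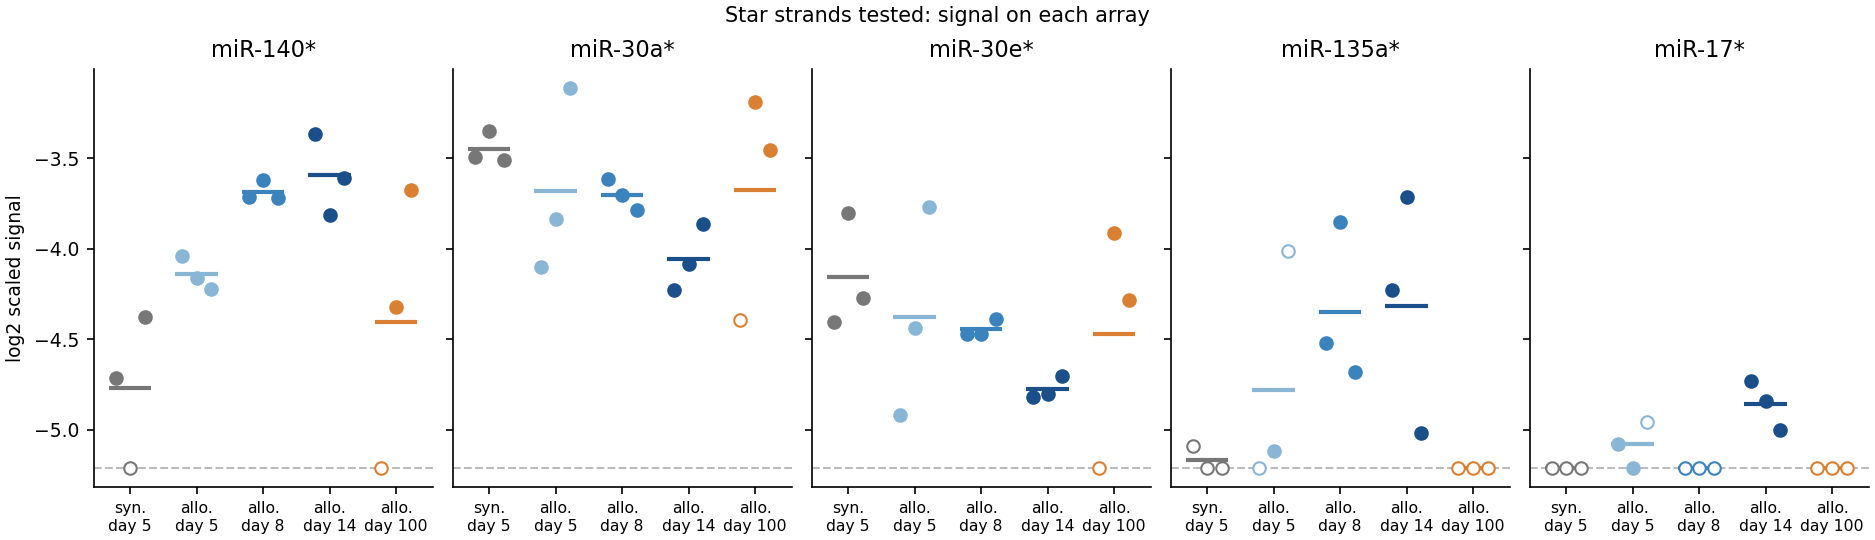
Log2 scaled signal of the 5 tested star strands on each array, with lines at the group means, filled points where the strand was detected, open points where it was not, and a dashed line at the floor of -5.21. miR-140* rose on days 8 and 14, and miR-135a* was above the floor on 2 arrays of day 5, all 3 of days 8 and 14, and 1 syngeneic array.

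The change of the ratio of star to main strand was tested over all 58 pairs of arms in which at least 1 arm passed the filter, beside an exact two-sided permutation test of 3 arrays against 3, whose smallest p is 0.1. Ratios of 2 of 5 star pairs were called on day 8 against 39.7% of all pairs. On day 14 it was 1 against 41.4%, on day 5 0 against 19%, on day 100 0 against 20.7%, and between days 14 and 100 1 against 39.7%. The pair called on day 14 and against day 100 was miR-17*, whose main strand was at the floor throughout, so that its ratio repeats its level.

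The ratio of miR-140* to miR-140 was higher on day 8 by 1.05 ± 0.34 (log2, SE; adjusted p = 0.0275; exact permutation p = 0.1), or 2.07-fold. In signal, miR-140* went from 46.9 and 39.3% of miR-140 on the 2 syngeneic arrays where it was detected to 68.0, 84.5 and 61.8% on day 8. On day 14 the ratio was higher by 0.84 ± 0.34 (adjusted p = 0.0559; exact permutation p = 0.1), and on days 5 and 100 the differences were 0.18 and 0.53. Without syngeneic replicate 2 the difference on day 8 was 0.72 and was not called (adjusted p = 0.144), nor was it without day 8 replicate 1 (1.08, adjusted p = 0.0616) or replicate 2 (0.92). The call was also lost without scaling (0.78, adjusted p = 0.0995), with the floor divided by 4 (1.13, adjusted p = 0.233), with normexp (0.12, adjusted p = 0.402), with no filter (1.05, adjusted p = 0.152) and with only the groups compared (1.05, adjusted p = 0.0530).

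miR-30a and miR-30e are members of a family that shares its seed and is abundant in hepatocytes. The main strand miR-30a fell on every day, by 0.58, 0.76, 0.82 and 0.66 on days 5, 8, 14 and 100 (SE 0.14; adjusted p = 0.00880, 0.000993, 0.000337 and 0.00675). miR-30e fell by 1.32 on day 8, 1.13 on day 14 and 0.98 on day 100 (SE 0.24; adjusted p = 0.000993, 0.00171 and 0.0113), and differed by -0.59 on day 5 (adjusted p = 0.0863). These falls are relative to the 75th percentile, which was higher in most allografts: without scaling none was called, and miR-30a differed by -0.041 to -0.13.

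miR-30a* was at -3.49, -3.35 and -3.51 in the syngeneic grafts. It was at -4.10, -3.84 and -3.11 on day 5 and at -3.61, -3.70 and -3.79 on day 8. It was at -4.23, -4.08 and -3.86 on day 14 and at -4.39 (the noisy array, not detected), -3.19 and -3.45 on day 100. The arrays of days 8 and 14 lay below the syngeneic ones, and those of days 5 and 100 overlapped with them.

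The star strand miR-30a* was not called on any day. Its differences were -0.23, -0.25, -0.61 and -0.23 on days 5, 8, 14 and 100 (SE 0.29; adjusted p = 0.590, 0.605, 0.103 and 0.568). The 95% interval on day 14 was -1.23 to 0.016. Within slide 1, day 14 was lower by 0.64 and was called (adjusted p = 0.0120). Without scaling the signs of all 4 differences turned (0.17 to 0.38, none called), as did that of day 100 without replicate 1 (0.13).

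miR-30e* was at -4.40, -3.80 and -4.27 in the syngeneic grafts. It was at -4.92, -4.44 and -3.77 on day 5, and at -4.47, -4.47 and -4.39 on day 8. It was at -4.82, -4.80 and -4.70 on day 14, and at -5.21 (at the floor, the noisy array), -3.91 and -4.28 on day 100. The arrays of day 14 alone lay below all syngeneic ones.

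Nor was miR-30e* called on any day. Its differences were -0.22, -0.29, -0.62 and -0.31 on days 5, 8, 14 and 100 (SE 0.32; adjusted p = 0.645, 0.593, 0.13 and 0.465). Within slide 1, day 14 was lower by 0.67 and was called (adjusted p = 0.0186). Without scaling the signs of all 4 turned here too (0.068 to 0.34, none called), as did that of day 100 without replicate 1 (0.061) and of day 5 without replicate 1 (0.053).

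**Figure D4:**
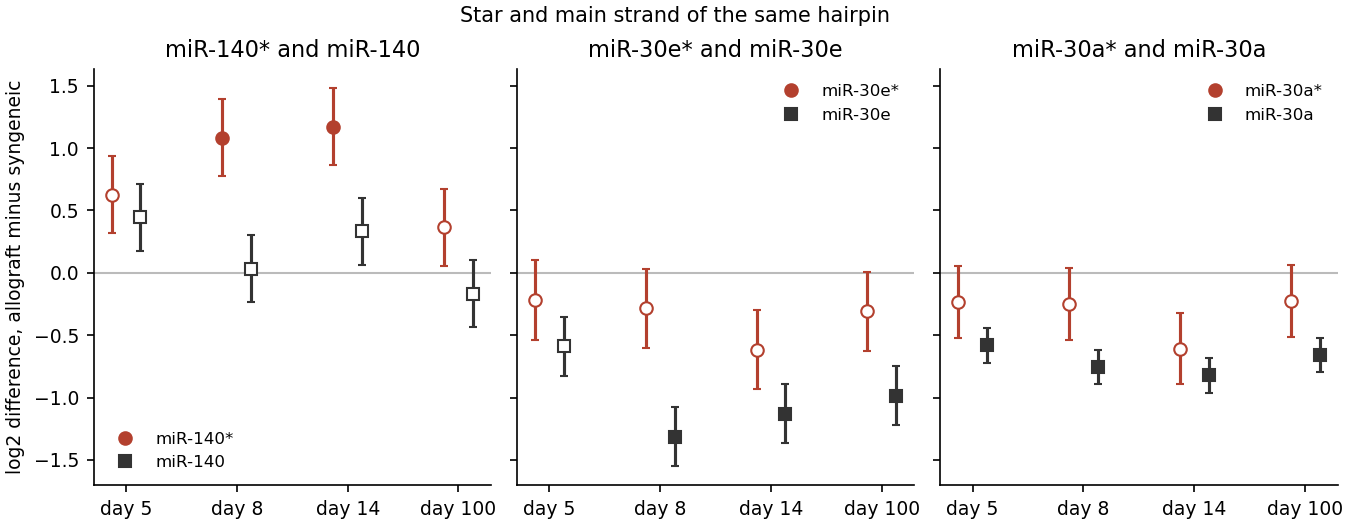
Log2 difference from the syngeneic grafts (mean ± SE of the fit, 3 arrays per group) of star strands (circles) and their main strands (squares) by day, filled where the adjusted p was below 0.05. miR-140* rose on days 8 and 14 by 1.08 and 1.17, while miR-30e fell on days 8, 14 and 100.

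The ratio of miR-30e* to miR-30e was higher on day 8 by 1.03 ± 0.26 (log2, SE; adjusted p = 0.00885; exact permutation p = 0.1), or 2.04-fold. The star gave 21.8, 17.8 and 16.9% of the main signal in the syngeneic grafts, and 38.1, 40.9 and 35.7% on day 8, without overlap. The difference was 1.03 without scaling too (adjusted p = 0.0316), was called with each array left out in turn (0.96 to 1.14), and was 0.96 within slide 1 (adjusted p = 0.00569). With a floor divided by 4 it was 1.03 and not called (adjusted p = 0.255). Over all alternatives the difference ran from 0.40 to 1.14, so its size depended on the processing.

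On the other days the ratio of miR-30e* to miR-30e differed by 0.37 on day 5, 0.51 on day 14 and 0.67 on day 100 (SE 0.26; adjusted p = 0.394, 0.118 and 0.0837). Without replicate 1 of day 100 that last difference was 0.98 and was called (adjusted p = 0.00921). The ratio of miR-30a* to miR-30a differed by 0.35, 0.51, 0.22 and 0.43 on days 5, 8, 14 and 100 (SE 0.31), and none of these was called (adjusted p = 0.451, 0.244, 0.621 and 0.337). On day 8 its arrays did not overlap with the syngeneic ones either, at 8.23 to 9.65% against 5.20 to 6.91% (exact permutation p = 0.1). With only the groups compared this difference was called (0.51, adjusted p = 0.0469), while 30 of 32 alternatives left it uncalled. Without replicate 1 of day 100 the difference of miR-30a* on that day was 0.83 and was called (adjusted p = 0.0210). Whether the change of ratio differed between the 2 hairpins was not tested.

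miR-135a* was not well above background in the syngeneic grafts (15.1, -4.41 and -1.61 units). It was detected on 1 array of day 5 (15.7, 27.4 and 28.3 units, of which the second was detected). It was detected on all arrays of day 8 (31.3, 53.9 and 32.4 units) and day 14 (43.9, 57.2 and 31.5 units). On day 100 it was at -112, 4.54 and -9.37 units and not detected. In unscaled signal, days 8 and 14 lay above every syngeneic and day 100 array.

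Set against the lowest signal detected on each syngeneic array, miR-135a* was 1.42-fold higher on day 8 and 1.46-fold higher on day 14. That signal is not a strict limit for strands that were not detected. On replicate 3 of day 5, miR-135a* read 28.3 units and was not detected, where the lowest detected signal was 19.2 units. In the fit the differences were 0.82 ± 0.35 (adjusted p = 0.0720) and 0.85 ± 0.35 (adjusted p = 0.0583), which were not called. Both were called without scaling (1.03 and 1.21, adjusted p = 0.0155 and 0.00378). The same held with the floor divided by 4 (2.15 and 2.18, adjusted p = 0.0126 and 0.00930). Normexp turned both signs (-0.31 and -0.41), and 23 and 24 of 30 alternatives kept the direction without a call. Day 14 was called above day 100 by 0.89 ± 0.35 (adjusted p = 0.0458), or 1.23-fold against the lowest signals detected on the arrays of day 100. Of 15 fits that each left out 1 array, 10 lost this call. The main strand miR-135a stayed below the floor on all arrays.

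miR-17* was detected on all 3 arrays of day 14 (31.0, 26.2 and 31.9 units) and on 2 of day 5 (26.2, 20.4 and 14.7 units). On day 8 it was at 17.5, 19.6 and 21.5 units, not detected and below the floor. The syngeneic grafts had 2.28, 5.42 and 9.11 units and day 100 had -40.4, 7.16 and 12.6 units. In these unscaled units the arrays of day 14 lay above those of every other group except replicate 1 of day 5, and on the scaled level they overlapped with replicate 3 of day 5. All of these signals were close to the limit of detection.

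The fitted rise of miR-17* on day 14 was 0.35 ± 0.12 against both the syngeneic grafts (adjusted p = 0.0259) and day 100 (adjusted p = 0.0247), with both of these at the floor on all arrays. Since miR-17* entered the fit through day 14 alone, this direction was fixed by the filter, and the p-values are given as a description. Set against the lowest signal detected on each syngeneic array, miR-17* on day 14 was 1.00-fold, so no fold above 1 was shown. The call against the syngeneic grafts was lost without syngeneic replicate 1 (adjusted p = 0.0562), day 14 replicate 1 (0.0950) or day 14 replicate 2 (0.0637), and within slide 1 (0.0543), and normexp turned its sign (-0.30). The call against day 100 was lost in 4 of 15 leave-outs.

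All detected star strands but miR-30a*, miR-135a* and let-7d* rested mainly on 1 of 2 probes. The brighter probe of miR-140* was detected on 13 arrays and the other on 1. Of 4 probes of miR-135a*, 1 was detected on 7 arrays, 1 on 4 and 2 on none, and for miR-17*, miR-22*, miR-30e* and miR-199b* 1 of 2 probes was detected on none. Both probes of miR-30a* were detected on the same number of arrays, 14.

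Markers of cell types also differed between the groups. The summed scaled level of 7 leukocyte miRNAs was 0.714 to 1.78 in the syngeneic grafts, 2.45 to 2.86 on day 8, 3.27 to 4.46 on day 14 and 1.25 to 1.66 on day 100, and on day 5, where no star strand was called, it was 3.21 to 8.36, with miR-150 not detected in any group. That of 4 hepatocyte miRNAs was 30.1 to 35.7, 22.9 to 24.7, 13.4 to 17.1 and 23.3 to 27.8 in the same groups, and 21.9 to 25.9 on day 5. Of 3 erythroid miRNAs it was 0.597 to 1.21 in the syngeneic grafts and 1.82 to 2.48 on day 14. Their part in the changes of the star strands was not tested, and in whole grafts fewer cells of a type and less RNA per cell cannot be told apart.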

How the data were processed

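The authors hybridized total RNA of 15 liver grafts, 1 per array, and deposited the output of Agilent Feature Extraction 9.5.1.1 (per the file headers): background-subtracted spot intensity, not normalized between arrays, with detection flags per spot. Control and outlier spots were left out, spots averaged per probe, and probes summed per miRNA. Each array was scaled to the 75th percentile of its 52 miRNAs that every array detected, with a floor of 0.0270, the median of the arrays' lowest detected scaled signals. limma 3.58.1 (R 4.3.3) was fitted to all 5 groups, with Benjamini-Hochberg adjustment and a threshold of 0.05. Other steps used Python 3.11.15, numpy 2.4.6 and pandas 2.3.3.

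Every star strand detected on any array was named, with per-array values for those tested, as were the 10 brightest main strands with a star on the array. The members and lists were chosen with earlier results of these data known. Ratios were first planned over the 5 star pairs only; the adjustment was widened to 58 arm pairs after seeing the data. Normexp used median intensities because the files hold no spot means. A series table of log2 values was not used here. Mice were separate per array, per the labels. The fits were tested on simulated data drawn from normal distributions, without a floor or a detection filter. That test does not bear on calls of strands near the floor.

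Alternatives tried were scaling by the median, by quantiles, by the percentile of all miRNAs or not at all, other summaries (brightest probe, the software's total signal), normexp (offset 50), other filters, the floor divided by 4, a fit of the compared groups alone, slide or replicate number as a block, within the slide, each array left out, the methods' t-test, and other detection rules.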

Additional observations from a re-analysis of the deposited data

Results flagged for a closer look

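The difference between allografts of day 14, in rejection, and day 100, in tolerance, was tested directly for 5 star strands in the fit across 103 miRNAs, and was past the threshold for 3 of them (not for miR-30a* and miR-30e*). miR-140* was higher on day 14 by 0.81 on the log2 scale, although 1 array of day 100 lay within the range of day 14, and the difference was 0.40 without the noisy array of day 100, no longer called; 11 of 15 fits without 1 array lost the call. That strand entered the fit through days 5, 8 and 14 only. miR-135a* was higher by 0.89, with all 3 arrays of day 100 at the floor, and had entered through days 8 and 14 alone. miR-17* was higher by 0.35, with the arrays of day 100 again at the floor; it entered the fit through day 14 alone. No slide held both days, and with slide as a block none of the 3 was called.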

How the results depend on the processing

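Over all alternatives, 1392 single differences kept their direction and side of the threshold, 41 gained a call and 51 changed sign, and the rest lost a call. The causes were not tested. Leaving out an array of a group outside a comparison keeps its difference as it was, so these counts are no measure of robustness. The star levels called on day 8 (1) became 0 with the 75th percentile over all miRNAs, normexp, no filter or the methods' t-test after adjustment, 2 without scaling, with the floor divided by 4 or with only the groups compared, and 3 by the unadjusted t-test. Those of day 14 (2) became 1 with that percentile, the brightest probe, no filter or the adjusted t-test, and 4 by the unadjusted one; median scaling and the fit within the slide gave 3. The 1 of the adjusted t-test was miR-30a*, lower (-0.61, adjusted p = 0.0399), with miR-140* (0.0509) and miR-17* (0.0502) lost, and the 2 of normexp were miR-30a* and miR-30e*, lower. Between days 14 and 100 (3) they became 0 with that percentile, the brightest probe, normexp, only the groups compared or slide as a block, and 1 with quantile normalization, the total gene signal, no filter or either t-test. On day 5 the floor divided by 4 gave 1 level and 1 ratio. Ratios called on day 8 (2) became 1 with normexp, no filter, detection on all 15 arrays or the adjusted t-test, and 4 by the unadjusted one. Those of day 14 (1) became 0 with that percentile, quantile normalization, the brightest probe, normexp, detection on all 15 arrays, only the groups compared or the adjusted t-test, and 2 with median scaling or the floor divided by 4. On day 100 (0) quantile normalization and the brightest probe gave 1. Between days 14 and 100 (1) ratios became 0 with that percentile, the brightest probe, normexp, detection on all 15 arrays, only the groups compared or slide as a block, and 2 with median scaling or the floor divided by 4. No star level could be fitted with the filter of detection on all 15 arrays. Requiring all spots of a probe left 1 syngeneic star strand on all 3 arrays.

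Leaving out each array gave 0 to 0, 0 to 2, 1 to 3, 0 to 1 and 0 to 3 levels called on days 5, 8, 14, 100 and between days 14 and 100, 0 to 0, 1 to 3, 0 to 4, 0 to 2 and 0 to 2 ratios, and 2 to 3, 3 to 5, 4 to 4, 5 to 5 and 0 to 3 star strands detected on all arrays of the syngeneic grafts and days 5, 8, 14 and 100. Same-numbered arrays showed no common deviation (r from -0.65 to 0.45), which with 3 arrays per group cannot exclude a pairing by number. With the replicate block, 0, 1, 2, 0 and 2 levels were called in the 5 comparisons, and ratios fell to 0 on day 14 and between days 14 and 100.

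Signs changed with normexp for miR-135a* on days 5, 8 and 14 (-0.39, -0.31 and -0.41), miR-140* on days 5, 8, 14 and 100 (-0.25, -0.14, -0.16 and -0.20), miR-17* on days 5 and 14 and between days 14 and 100 (-0.16, -0.30 and -0.049), miR-140 on days 5, 8 and 14 (-0.13, -0.26 and -0.21), the ratio of miR-140* on day 5 (-0.12) and that of miR-30e* between days 14 and 100 (5.8e-05). Without scaling they changed for miR-30a* on days 5, 8, 14 and 100 (0.31, 0.38, 0.17 and 0.33), miR-30e* on these days and between days 14 and 100 (0.32, 0.34, 0.16, 0.068 and 0.091), miR-140 on day 100 (0.39), the ratio of miR-140* on day 5 (-0.085) and that of miR-30e* between days 14 and 100 (0.021). With the floor divided by 4 they changed for miR-140* on day 100 (-0.22), its ratio (-0.048), and miR-30e* between days 14 and 100 (0.35; ratio 0.50). With slide as a block or within it they changed for miR-140* on day 100 (-0.024) and its ratio on day 5 (-0.015). miR-140 on day 8 changed with the 75th percentile over all miRNAs (-0.034), median scaling (-0.11), quantile normalization (-0.22) and total gene signal (-0.0046), and the ratio of miR-30a* on day 14 with quantile normalization (-0.23). Leaving out 1 array spanned 0 for miR-30a* on day 100 (-0.47 to 0.13), miR-30e* on day 5 (-0.52 to 0.053) and day 100 (-0.59 to 0.061), miR-140 on day 8 (-0.16 to 0.14) and day 100 (-0.37 to 0.046), and the ratios of miR-140* on day 5 (-0.14 to 0.54) and of miR-30a* (-0.62 to 0.028) and miR-30e* (-0.47 to 0.049) between days 14 and 100. Most star signals lay near background, which limits all of these values.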

Other observations

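The scanner software's own detection flag, set per miRNA and looser than the rule used above, marked 6 further star strands. It marked miR-483* on 5 arrays (2 syngeneic and 3 allograft), miR-674* on 2, and let-7b*, miR-18a*, miR-21* and miR-29b* on 1 each. The marks of let-7b* and miR-18a* were on the noisy array of day 100, where their signals were 217 and 129 units.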
